A study of Mus musculus with 20 samples.

Results

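Wnt4 is a secreted Wnt ligand that nephron progenitor cells (NPCs) switch on when they are induced to form a nephron. It was chosen by name, through the row of the table of normalized counts whose identifier (ENSMUSG00000036856) the deposited comparison tables pair with the symbol Wnt4, and it is 1 gene of 31130. In the developing kidney, a Wnt signal from the ureteric epithelium acts on NPCs through β-catenin, which enters the nucleus and activates genes together with Lef/Tcf factors. Induced NPCs gather into a pretubular aggregate, make Wnt4, and undergo the mesenchymal to epithelial transition (MET) that gives the renal vesicle. Kidneys without Wnt4 are known to fail at this transition.

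Messenger RNA was sequenced from 20 libraries of primary NPCs of mouse kidney, genotype Cas9-eGFP, sorted by FACS for an mCherry reporter of transfection. All groups carried Cas9 and eGFP and received sgRNAs by lipofection: against GFP (CTRL), Ctnna1 (α-catenin KO), Ctnnb1 (β-catenin KO), or Cdh2, Cdh3, Cdh4 and Cdh11 together (QCKO). After the knockout period the cells were kept in low (1.25 µM) or high (5 µM) CHIR, an inhibitor of the kinase GSK3β that stabilises β-catenin and so mimics a Wnt signal. CTRL and β-catenin KO have 3 libraries in each CHIR condition, α-catenin KO and QCKO have 2, and the replicate number stands for the date in the sample title (α-catenin KO has replicates 1 and 3, QCKO 2 and 3). Sorting was on the reporter, not on loss of the targeted protein, so each library can hold transfected cells that kept the protein. Their share was not measured here. In bulk RNA, fewer cells making a transcript and less transcript per cell cannot be told apart.

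Depth ran from 18124772 to 28472412 recovered reads per library. The α-catenin KO libraries held 3564 to 3790 normalized counts of Ctnna1 against 5817 to 10082 in CTRL. In QCKO, Cdh11 was below CTRL in both CHIR conditions, while Cdh2, Cdh3 and Cdh4 overlapped with CTRL. Ctnnb1 is not paired with an identifier in the tables used here, so its transcript was not analysed. Of the progenitor markers listed for these cells, 5 of 6 were measured, and their summed normalized counts in low CHIR ran from 10324 to 19935 across the groups. The labels name dates and do not name animals, so the p-values measure the spread between these libraries.

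The Wnt4 gene lies on chromosome 4 at 137277635 to 137299501, plus strand, in the RefSeq annotation of GRCm38.p6, and spans 21867 bases with 1 curated transcript. No other RefSeq gene overlaps it. The nearest are the lncRNA gene Gm31820, 24874 bases upstream, and Cdc42, 20195 bases downstream. The 250 bases before the transcription start are shown because Wnt4 and Sp5 are both among the transcripts that rose with CHIR in CTRL. The stretch is chr4:137277385-137277634, plus strand, with each GC box (GGGCGG on either strand) in capitals. The stretch before Sp5, a transcription factor gene induced by Wnt signals whose transcript moved with Wnt4 below, is given beside it (chr2:70474673-70474922, plus strand), with each Lef/Tcf heptamer in capitals.
Wnt4: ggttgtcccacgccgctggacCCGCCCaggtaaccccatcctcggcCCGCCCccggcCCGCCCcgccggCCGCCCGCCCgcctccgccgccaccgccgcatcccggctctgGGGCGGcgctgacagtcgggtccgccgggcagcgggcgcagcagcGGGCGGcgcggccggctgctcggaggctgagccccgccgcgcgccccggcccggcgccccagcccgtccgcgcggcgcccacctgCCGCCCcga
Sp5: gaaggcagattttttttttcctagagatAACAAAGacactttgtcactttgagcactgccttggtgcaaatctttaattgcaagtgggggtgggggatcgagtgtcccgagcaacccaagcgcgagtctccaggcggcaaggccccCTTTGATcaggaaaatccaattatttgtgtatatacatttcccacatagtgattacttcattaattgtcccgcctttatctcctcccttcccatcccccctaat

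The Wnt4 stretch was 85.2% G and C, against a median of 52.4% over 32851 RefSeq promoter stretches of the same length, and it held 44 CpG pairs against a median of 6. The GC box matched 8 times, with 1 pair of matches sharing bases, while 32.7% of all stretches held the box at all and 0.155% held it 8 times or more. The Lef/Tcf heptamers, searched on both strands as CTTTGAA or CTTTGAT and, with another ending, as CTTTGTA or CTTTGTT, matched nowhere in the Wnt4 stretch and 2 times in that of Sp5. Of all stretches, 14.8% held at least 1 of them. Of the 9 other pathway genes that rose with CHIR in CTRL, 7 have a stretch in the RefSeq table, and 2 of these, Sp5 and Lef1 (in 1 of its 4 stretches), held a heptamer. These counts describe letters in a short window and say nothing of distant elements or of binding.

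The β-catenin KO is the group in which Wnt4 varied most, so the Ctnnb1 guides listed by the study for this knockout protocol are shown. They are named by number and exon as the study names them, and the same letters are given for the last 2, so 3 of the 4 sequences are distinct.
Ctnnb1 sgRNA 1, exon 2: atgagcagcgtcaaactgcg
Ctnnb1 sgRNA 3, exon 3: agccaagcgctggacattag
Ctnnb1 sgRNA 5, exon 3 (and sgRNA 6, exon 6): gagattatgcagtgtcgtga

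Wnt4 was low in every low CHIR library outside β-catenin KO and high in every high CHIR library outside it. In CTRL, Wnt4 read 41.1, 72.6 and 72.0 normalized counts in low CHIR (replicates 1, 2 and 3; 61.9 ± 18.0, SD, n = 3) and 5286, 4156 and 5401 in high CHIR (4947 ± 688). In α-catenin KO it read 43.9 and 123.1 in low CHIR (replicates 1 and 3; 83.5 ± 56.0, n = 2) and 5212 and 5849 in high CHIR (5530 ± 451). In QCKO it read 98.0 and 102.2 in low CHIR (replicates 2 and 3; 100.1 ± 2.95, n = 2) and 5664 and 4798 in high CHIR (5231 ± 612). The 7 libraries in low CHIR and the 7 in high CHIR did not overlap, and the lowest high value was 33.8 times the highest low value.

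In β-catenin KO the libraries of the 3 dates stood far apart. Wnt4 read 30.1, 831 and 634 normalized counts in low CHIR (replicates 1, 2 and 3; 498 ± 417, n = 3) and 252, 2387 and 1200 in high CHIR (1280 ± 1070). The low CHIR library of replicate 1 was the lowest of all 20, whereas replicates 2 and 3 in low CHIR lay above every low CHIR library of the other groups. In high CHIR all 3 values lay under the lowest value of the other groups. The highest β-catenin KO library was 27.6 times the lowest in low CHIR and 9.48 times in high CHIR, while the 7 high CHIR libraries of the other groups spanned 1.41 times.

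**Figure D1:**
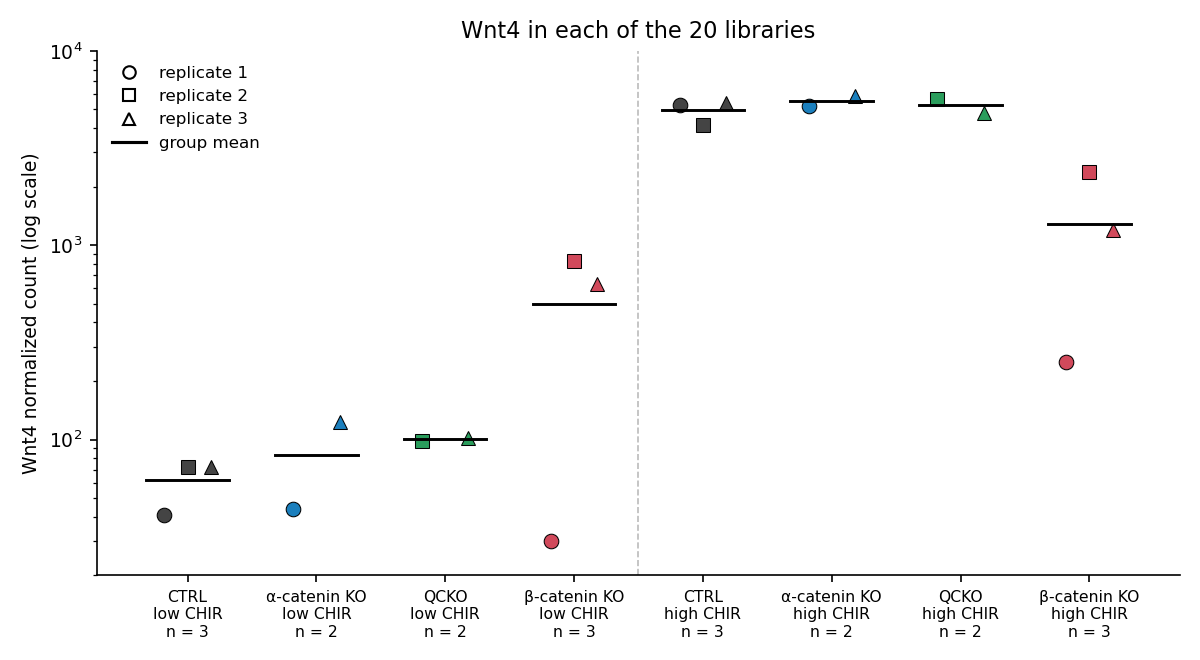
Wnt4 normalized counts (log axis) in each of the 20 libraries, by knockout and CHIR condition; symbols give the replicate number and bars the group mean. Outside β-catenin KO the low CHIR libraries lie between 41.1 and 123.1 and the high CHIR libraries between 4156 and 5849, while β-catenin KO spreads from 30.1 to 2387.

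Counting error was small beside these gaps. The lowest Wnt4 value rested on 28 reads (95% exact Poisson interval 18.6 to 40.5), and the 831 normalized counts of replicate 2 on 831 reads (775 to 889). These intervals cover counting error only, since PCR copies of 1 molecule are not told apart.

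Ordered by mean level, the low CHIR groups came first (CTRL, then α-catenin KO, then QCKO, then β-catenin KO), followed by β-catenin KO, CTRL, QCKO and lastly α-catenin KO in high CHIR. Neighbours in this order overlapped, except β-catenin KO and CTRL in high CHIR. The latter pair differed by 2.45 on the log2 scale (limma adjusted p = 0.10, or 0.023 with the replicate number as a block; exact permutation p = 0.10, the smallest that 3 against 3 libraries allow). For the other neighbours the exact two-sided permutation p ran from 0.40 to 1, and 2 libraries against 2 cannot go below 0.33. The largest of those gaps, QCKO to β-catenin KO in low CHIR (1.33 ± 1.05, SE) and β-catenin KO low to high CHIR (1.82 ± 0.94), were within the spread of the β-catenin KO libraries.

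The first comparison asked how Wnt4 answers high CHIR. In CTRL, Wnt4 rose 80.7-fold (log2 fold change 6.33 ± 0.32, SE; limma adjusted p = 2.9e-07), among 16516 genes tested, of which 10.7% were called, 4.84% as higher and 5.82% as lower. Among increases the rise ranked 9 over all genes tested, and by absolute size of change it ranked 15. The rank among increases ran from 4 (pseudocount of 5) to 21 (pseudocount of 0.25) over the alternatives run. Calls needed an adjusted p under 0.05 together with a log2 fold change of more than 0.5 in either direction. Taken by date, the log2 rise was 6.97, 5.82 and 6.21, so it held on each of the 3 dates. The exact permutation p was 0.10, the smallest that 3 against 3 allow.

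Wnt4 rose as well in both knockouts of the adhesion machinery. In α-catenin KO, which removes the link from cadherins to actin, the log2 fold change was 6.21 ± 0.40 (adjusted p = 4.9e-06; 6.86 and 5.56 by date), where 4.39% of genes were called. In QCKO it was 5.69 ± 0.40 (adjusted p = 6.6e-06; 5.84 and 5.54 by date), where 4.93% of genes were called. Among increases these rises ranked 15 and 24, with 6 to 32 and 12 to 35 over the alternatives run. By absolute size of change they ranked 22 and 37. The exact test over 2 against 2 libraries cannot go below 0.33.

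Markers of other cell types differed in direction between the CHIR conditions, and their part in the rise of Wnt4 was not tested. Outside β-catenin KO, Tek, the 1 measured of 8 endothelial markers, ran from 0 to 7.64 normalized counts in low CHIR libraries and from 89.7 to 383 in high CHIR libraries. Meis1, the 1 measured of 10 stromal markers, ran from 1740 to 3220 and from 750 to 1094. The sum of the 6 measured of 13 markers of ureteric epithelium overlapped between the conditions in CTRL (320 to 1457 with low and 891 to 1078 with high CHIR). It did not overlap in α-catenin KO (429 to 1211 against 1289 to 2322) or in QCKO (640 to 878 against 1838 to 2121). The members of the sum disagreed. From low to high CHIR in QCKO, the group means rose for Gata3 (51.5 to 866), Hoxb7 (379 to 798), Cdh1 (136 to 191) and Wnt11 (0.482 to 4.75). Those of Krt8 (139 to 111) and Tfap2b (53.9 to 9.17) fell. Cd74, the 1 measured of 8 leukocyte markers, overlapped between the conditions in CTRL and α-catenin KO, and in QCKO it was lower with high CHIR (216 to 234 against 251 to 255). In β-catenin KO, Tek read at most 4.80 with low CHIR, against 4.62, 85.3 and 46.8 (replicates 1, 2 and 3) with high CHIR.

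**Figure D2:**
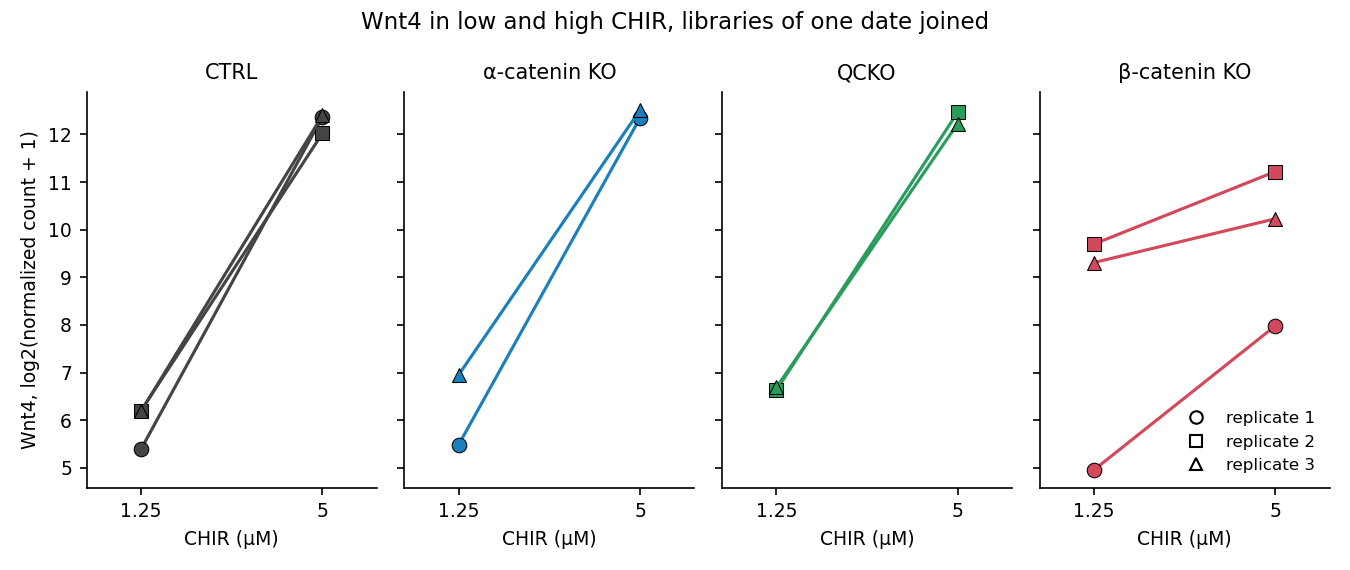
Wnt4 as log2(normalized count + 1) in 1.25 and 5 µM CHIR, with the 2 libraries of each date joined, in the 4 knockout groups. The lines of CTRL, α-catenin KO and QCKO rise by 5.54 to 6.97 and end together, while those of β-catenin KO rise by 0.92 to 3.02 from 3 different starting levels.

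No difference in Wnt4 between these knockouts and CTRL was detected, and the intervals say how large a difference the libraries could hide. In high CHIR, α-catenin KO over CTRL was 1.12-fold (95% interval 0.653 to 1.93; adjusted p = 0.91) and QCKO over CTRL was 1.06-fold (0.617 to 1.83; adjusted p = 0.95). With the replicate number as a block the QCKO difference turned from 0.085 to -0.085 on the log2 scale. In low CHIR, α-catenin KO over CTRL was 0.29 ± 0.36 and QCKO over CTRL 0.73 ± 0.36 on the log2 scale (both adjusted p = 1.0), and both QCKO values lay above the 3 CTRL values. The α-catenin KO difference rested on single libraries, being -0.44 without its low CHIR replicate 3 and 1.03 without replicate 1. The CHIR response of α-catenin KO differed from that of CTRL by -0.12 ± 0.51 and that of QCKO by -0.65 ± 0.51 (both adjusted p = 1.0), where the former was 0.61 and -0.86 without the same 2 libraries in turn. QCKO and α-catenin KO differed in high CHIR by -0.083 ± 0.40 (adjusted p = 1.0).

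Few or no genes were called in those comparisons. At high CHIR limma called 0% of genes for α-catenin KO and for QCKO against CTRL, with 928 and 1444 genes at an unadjusted p under 0.05, and DESeq2 called 4 and 7. The targeted gene Ctnna1 was thus missed by limma in α-catenin KO. Its values there did not overlap with CTRL (3564 to 3621 against 5817 to 9314), so 0% called does not mean no difference. In low CHIR, 0% were called for α-catenin KO and 0.00605% for QCKO.

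In β-catenin KO the Wnt4 response to CHIR was smaller on each date and was not called. High over low CHIR gave 1.82 ± 0.94 on the log2 scale (adjusted p = 1.0, where 0.018% of genes were called), and by date 3.02, 1.52 and 0.92. Leaving out 1 library moved it from 0.31 (without low CHIR replicate 1) to 2.74 (without high CHIR replicate 1). The response minus that of CTRL was -4.51 ± 1.33, a difference with an adjusted p of 0.17, where 0.671% of genes were called. Every β-catenin KO rise was below every CTRL rise. With the replicate number as a block, the adjusted p was 0.023. The block removes only a shift of each date common to all groups, not a spread between dates particular to β-catenin KO.

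In high CHIR, Wnt4 in β-catenin KO was 4.76%, 57.4% and 22.2% of the CTRL library of the same date. The log2 difference was -2.45 ± 0.94 (95% interval of the fold 0.0461 to 0.725). Its adjusted p was 0.10 and, with the replicate block, 0.023, where 10.5% of genes were called without the block, 7.67% as higher and 2.86% as lower. Leaving out all replicate 1 libraries, chosen after seeing the data, gave -1.48 with an adjusted p of 0.012. Leaving out β-catenin KO high CHIR replicate 1 alone gave -1.54 with an adjusted p of 0.35.

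In low CHIR the dates disagreed in direction. Wnt4 in β-catenin KO was 73.3% of the CTRL library of the same date in replicate 1, and 11.4 and 8.81 times that library in replicates 2 and 3. The mean difference was 2.06 ± 0.94 on the log2 scale (adjusted p = 0.72, with the replicate block 0.26), where 0.0659% of genes were called. Leaving out β-catenin KO low CHIR replicate 1 raised it to 3.58 with an adjusted p of 0.023. Leaving out all replicate 1 libraries, chosen after seeing the data, gave 3.31 with an adjusted p of 2.3e-04. Both fits drop the library that went the other way, so these p-values are no support for a rise. Leaving out β-catenin KO low CHIR replicate 2 lowered the difference to 1.21 (adjusted p = 0.89). On recovered reads with all libraries, DESeq2 gave 3.01 (adjusted p = 0.039) and edgeR 3.02 (adjusted p = 0.23). The exact permutation p over all 6 libraries was 0.40.

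**Figure D3:**
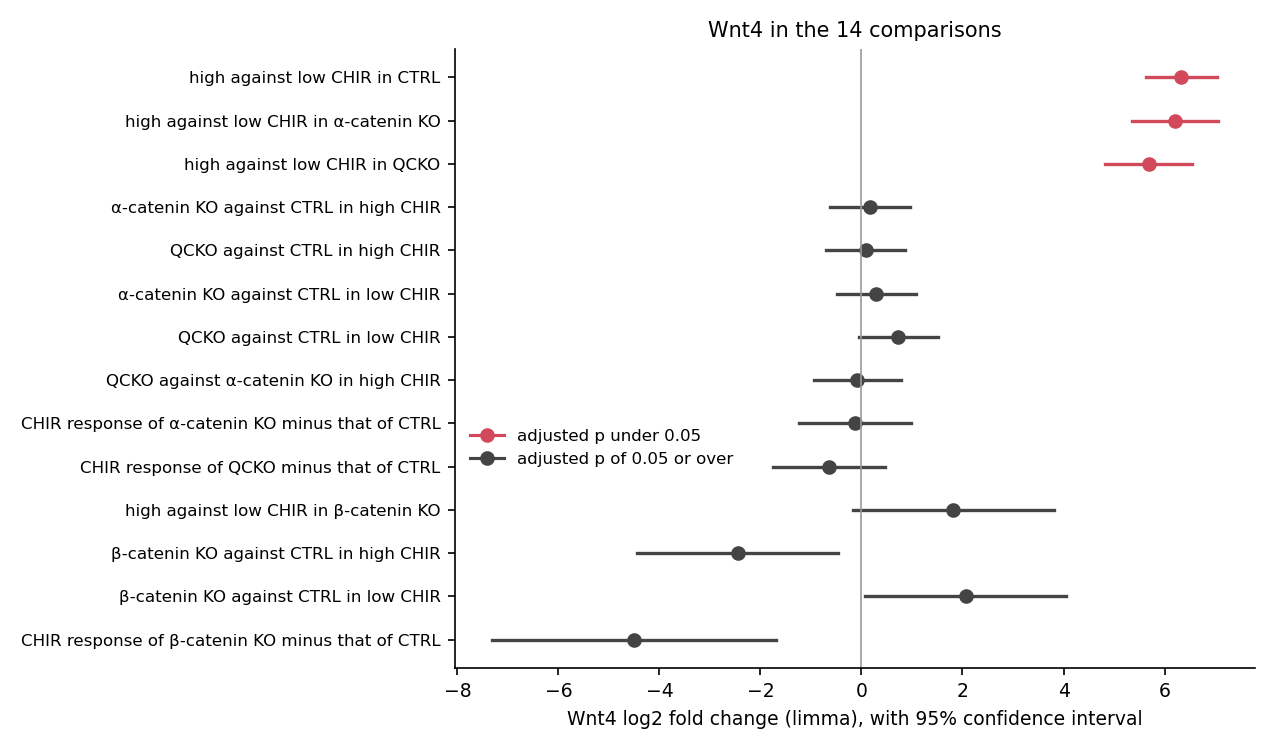
Wnt4 log2 fold change in the 14 comparisons (points, limma) with 95% confidence intervals (lines), red where the adjusted p is under 0.05. The 3 CHIR comparisons outside β-catenin KO lie between 5.69 and 6.33, the comparisons of α-catenin KO and QCKO with CTRL have intervals that cross 0, and those of β-catenin KO have the widest intervals.

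The genes around Wnt4 in its pathway were read from fixed lists of ligands, receptors, secreted regulators and transducers. Besides Wnt4 the lists hold 99 genes, of which 33 have an identifier and 31 passed the filter on low values. Symbols come only from the study's own tables of differing genes, so genes with an identifier were selected for a difference and the counts describe them alone. In CTRL, 9 of the 31 rose and 14 fell in high CHIR (median log2 fold change -0.86, all genes tested -0.01), where 4.84% of all genes tested rose and 5.82% fell.

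Among ligands, Wnt5b, a ligand of the β-catenin-independent branch, was the only other one tested. Its CTRL values were 144, 133 and 113 with low CHIR and 191, 132 and 139 with high CHIR (0.23 ± 0.24, adjusted p = 0.56). In QCKO it was called as higher in high CHIR (1.12 ± 0.29, adjusted p = 0.047), but the QCKO response minus that of CTRL did not pass the test (0.89 ± 0.38, adjusted p = 1.0). Wnt11, a ureteric tip ligand, stayed at 16 or fewer normalized counts in all 20 libraries.

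Receptors of the Frizzled family, which bind Wnt ligands, moved both ways. Fzd6 (log2 fold change 4.11 ± 0.62) and Fzd10 rose in CTRL with high CHIR, Fzd10 from 4.5, 1.1 and 2.1 normalized counts (replicates 1, 2 and 3) to 20.4, 38.5 and 47.8, while Fzd1, Fzd2, Fzd4, the co-receptor Lrp6 and the receptor kinase Ror2 fell. The R-spondin ligand Rspo1, which sustains Wnt receptors, fell by 3.49 on the log2 scale, and its receptor Lgr4 fell by 1.09. Of the secreted regulators, Notum, an enzyme that inactivates Wnt ligands, rose from 3.6, 6.5 and 5.3 to 102.1, 311.9 and 125.4 normalized counts, while the antagonist Frzb fell by 2.99, Dkk2 fell by 3.10 and Dkk3 fell by 1.87.

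Of 6 transducers tested, 4 rose in CTRL: the feedback scaffold Axin2 (2.80 ± 0.24), the nuclear partners of β-catenin Lef1 (4.09 ± 0.21) and Tcf7, and Sp5. Sp5 was at 0 in all 3 CTRL low CHIR libraries and between 36.3 and 105.8 with high CHIR, at least 21.8-fold higher against a floor of 3 reads per library. Of the 9 that rose, 3 (Fzd10, Notum and Sp5) had a mean under 10 in each low CHIR group outside β-catenin KO and so passed the filter on low values only through the libraries where they are high, and their rise is no support for the list. Tcf7l1, which represses in the absence of a signal, fell by 1.66, and the co-activator Bcl9l fell by 1.56. In the branch that acts without β-catenin, Prickle1 and Daam1 rose and Daam2 and Camk2a fell.

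Genes of the pretubular aggregate and renal vesicle, the stage marked by Wnt4, rose with it in CTRL. Of 22 on that list, 13 have an identifier, which they owe to the study's tables of differing genes. Of these, 11 rose, where 4.84% of all genes rose and 5.82% fell, Wnt4 among them with Lhx1 (4.91 ± 0.88), a transcription factor of the renal vesicle, and Jag1 (4.12 ± 0.72), a Notch ligand. Bmper and Tmem100 fell, and Tmem100 is on the list of progenitor genes too. All 9 measured nephron progenitor genes, selected in the same way, fell, and of these Six2 fell by 4.20 and Meox2 fell by 6.39 on the log2 scale.

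The spread of Wnt4 between dates in β-catenin KO was shared by some Wnt-responsive transcripts in low CHIR. Axin2 read 14, 560 and 384 normalized counts (replicates 1, 2 and 3) against 39, 71 and 61 in CTRL low CHIR and 357, 435 and 391 in CTRL high CHIR. Notum read 1, 562 and 325 against 4, 6 and 5 in CTRL low CHIR, and Fzd10 read 3, 327 and 195 against 4, 1 and 2. For these transcripts, as for Wnt4, replicate 1 was near or under CTRL and replicates 2 and 3 were well above it. In high CHIR they parted from Wnt4: replicates 2 and 3 were 1.71 and 1.75 times the CTRL library of the same date for Axin2, 1.3 and 4.6 times for Notum and 4.77 and 6.51 times for Fzd10 (from normalized count + 1), against 0.575 and 0.222 for Wnt4. Lef1 did not part in this way and lay under CTRL on both dates (0.714 and 0.697 times). Tcf7 (1.01 and 0.888 times) and Sp5 (1.87 and 0.838 times) lay on both sides of CTRL. In low CHIR, Lef1 read 62, 660 and 532, and Sp5 read 0, 83 and 59, against CTRL low CHIR values of 62 to 73 and 0. Of the 9 pathway genes that rose with high CHIR in CTRL, 6 had replicate 1 at or under the CTRL library of the same date and replicates 2 and 3 above it: these 5 and Tcf7. This pattern was taken from Wnt4 itself, and 9.27% of all genes tested in CTRL had it, as did 27.8% of the 799 that rose there with high CHIR. Fzd10, Notum and Sp5 passed the filter on low values only through the libraries where they are high. Sp5 in replicate 1 was 0 in both groups. The count of 6 is therefore no support for a pattern of the pathway. Fzd6 and Prickle1 were above CTRL on all 3 dates, and Daam1 was above it in replicate 2 alone. The 5 genes with printed low CHIR values were chosen after their values were seen. None of the 31 pathway genes passed the limma test in this comparison. DESeq2 called 4 as higher and 1 as lower, where it called 1.09% of all genes as higher and 0.0419% as lower. These values share the CTRL libraries with the comparison of CHIR conditions.

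Most renal vesicle genes lay closer to CTRL in those libraries. Jag1 read 185, 664 and 1425 in β-catenin KO low CHIR against 145, 505 and 694 in CTRL. Pax2, a transcription factor of the nephron lineage, read 124, 175 and 384 against 170, 355 and 319. These 2 genes were chosen after their values were seen. Over the 9 renal vesicle genes that rose in CTRL with high CHIR, other than Wnt4 and Lef1, replicates 2 and 3 of β-catenin KO lay at 0.494 to 3.38 times the CTRL library of the same date (from normalized count + 1). On that scale Wnt4 lay at 11.3 and 8.70 times and Lef1 at 8.98 and 7.88 times.

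Progenitor genes were above CTRL in high CHIR on each of the 3 dates, for all 9 measured. In β-catenin KO the low CHIR values of Six2 were 1236, 970 and 773 and its high CHIR values 798, 409 and 467, against 69, 64 and 84 in CTRL high CHIR. All 9 progenitor genes were higher in β-catenin KO than in CTRL in high CHIR by limma, with a log2 difference of 2.88 ± 0.28 for Six2 and 5.42 ± 0.54 for Meox2. In high CHIR, replicates 2 and 3 held progenitor transcripts above CTRL beside Wnt4 at 2387 and 1200, which is 57.4% and 22.2% of CTRL. Of the 31 other pathway genes, 11 were higher and 0 lower in that comparison, where 7.67% of all genes were higher and 2.86% lower. Identifiers were available only for genes the study's tables list as differing, so these shares are no measure of the pathway. Those that were higher included Fzd4, Frzb, Dkk2 and Tcf7l1.

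**Figure D4:**
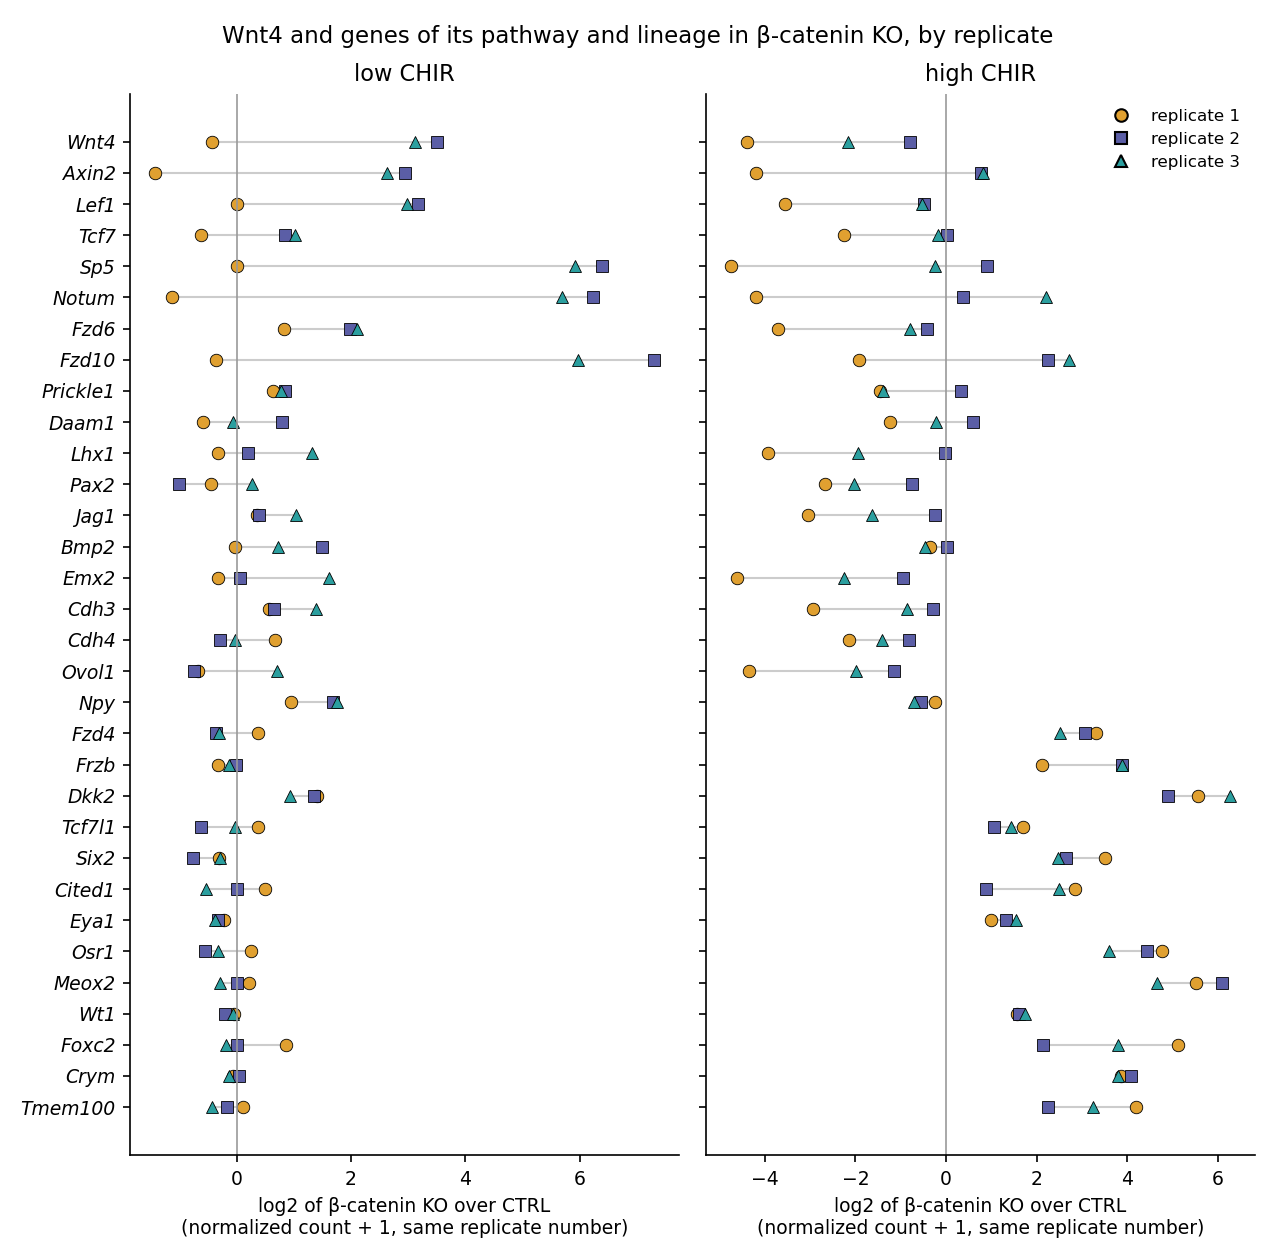
Log2 of β-catenin KO over the CTRL library of the same replicate number, from normalized count + 1, in low (left) and high (right) CHIR; symbols give the replicate and grey lines join the 3 values of a gene. In low CHIR, Wnt4, Axin2, Lef1, Tcf7, Sp5, Notum and Fzd10 have replicate 1 at or under 0 and replicates 2 and 3 above it, and Fzd6, Prickle1 and Daam1 do not. The progenitor genes Six2 to Tmem100 lie within 1 of 0 on the left and above 0 on the right.

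The date also moved with Wnt4 in low CHIR outside β-catenin KO, on a smaller scale. There the 2 low CHIR libraries of replicate 1 read 41.1 and 43.9, and the 5 of replicates 2 and 3 read 72.0 to 123.1, without overlap. The summed markers of ureteric epithelium, the neighbouring tissue in the kidney, moved with the date too. Of 13 listed, 6 were measured, and over all groups their sum was 320 to 508 normalized counts in low CHIR replicate 1 and 640 to 1457 in low CHIR replicates 2 and 3. Gata3, 1 of the 6, did not follow the sum, with 36.6, 73.7 and 25.4 in CTRL and 148.3, 186.9 and 84.9 in β-catenin KO. The CTRL low CHIR library of replicate 2 had the highest of those sums, 1457, and Wnt4 at 72.6, while β-catenin KO low CHIR replicate 2 had a sum of 983 and Wnt4 at 831. The part of these markers in the Wnt4 values was not tested.

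The genes whose levels ran nearest to Wnt4 over the 20 libraries were Rnase12, Sorbs2, Syk, Arhgef3 and Cthrc1, among 2868 genes with a symbol and a mean of at least 100 normalized counts. Likeness was the root-mean-square difference of log2 levels, each centred on the gene's own mean, and it was 0.61 to 0.76 beside an SD of 2.88 for Wnt4 itself. Sorbs2, which encodes an adaptor protein of the actin cytoskeleton, read 162, 158 and 222 in CTRL low CHIR and 9792, 3279 and 5765 in CTRL high CHIR. In β-catenin KO its low CHIR values were 104, 1288 and 1220 and its high CHIR values 344, 2550 and 1667, the order of libraries within each condition that Wnt4 has. Syk, a tyrosine kinase, read 2, 362 and 230 and then 67, 700 and 501 in β-catenin KO.

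Over the 6 β-catenin KO libraries alone, the nearest were Greb1, Bmpr1b, Sorbs2, Plet1 and Ccdc88c (0.45 to 0.54, with an SD of 2.21 for Wnt4). Bmpr1b, a BMP receptor, had low CHIR values of 21, 369 and 303 and high CHIR values of 80, 570 and 562. When each profile was scaled to an SD of 1 over the 20 libraries, Sorbs2, Cthrc1, Aopep, Syk and Rnase12 were nearest. Sorbs2 was the only gene among the nearest 5 on all 3 measures. Libraries share dates, and the likeness carries no test.

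**Figure D5:**
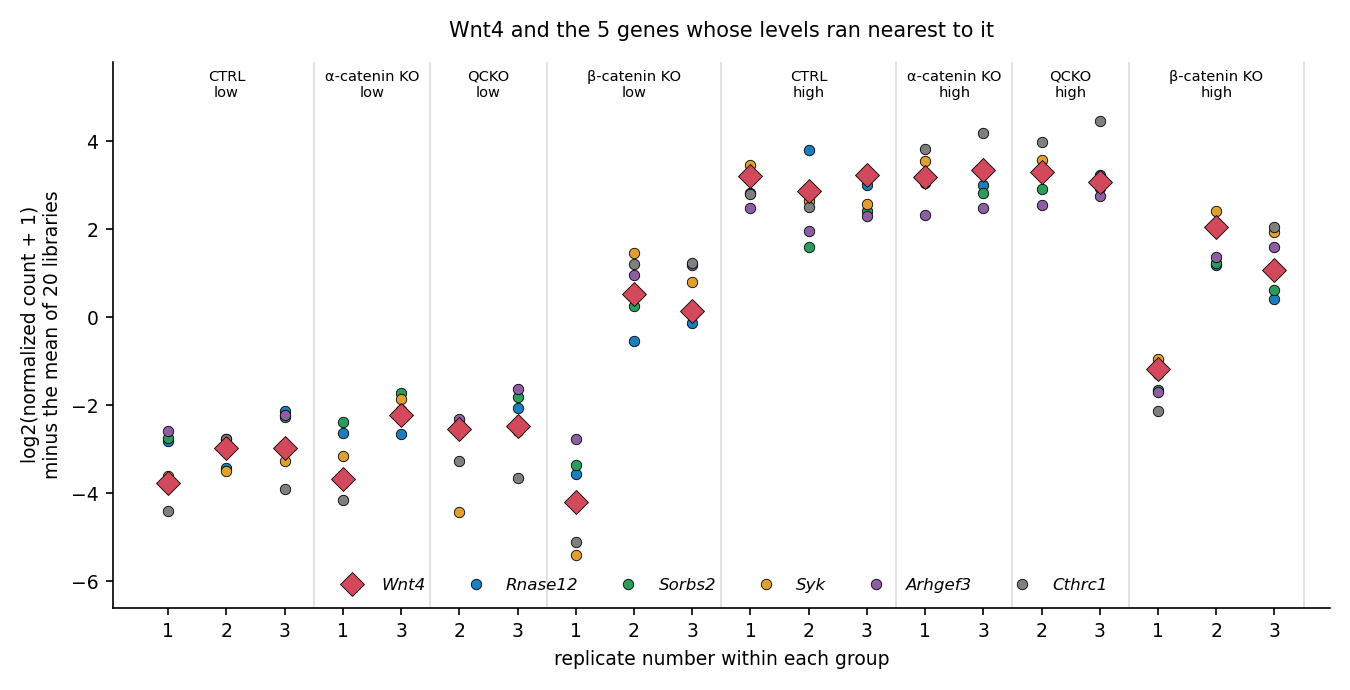
Log2(normalized count + 1) of Wnt4 (diamonds) and of the 5 nearest genes (circles), each minus its mean over the 20 libraries, by group and replicate number. All 6 genes are low in low CHIR and high in high CHIR outside β-catenin KO, and in β-catenin KO replicate 1 is the lowest of the 3 in both CHIR conditions.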

How the data were processed

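Paired-end mRNA libraries were made from unstranded cDNA of sorted NPCs. The signal values the authors deposited are read counts divided by 1 size factor per library, since 100% of values are multiples of 1 smallest step per library (tolerance 0.01 of a step). In 2 libraries the step is close to 1. The submitters' processing notes name STAR 2.5.1a, featureCounts 1.4.6-p5, Salmon 0.8.2 and DESeq2, and the builds GRCm38, mm10 and GRCh38, with no role or order. The deposited comparison tables (log2 ratios and p-values) were used only to pair 4316 identifiers with symbols.

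The main test was limma 3.58.1 (R 4.3.3) on log2(normalized count + 1), fitting each group's mean, with a trend in eBayes and Benjamini-Hochberg adjustment, over genes with a mean of at least 10. The fit used 14 libraries, or all 20 where β-catenin KO was compared. Recovered read counts, from values the authors deposited, went to edgeR 4.0.16 and DESeq2 1.42.0 as alternatives. Single values were compared by exact two-sided permutation tests (scipy 1.17.1). Simulated data with known changes served to test the calls. Same-numbered libraries share the date in the title, and their deviations from the group means correlated at 0.0471 to 0.721 across genes, so the replicate number was used as a block in an alternative.

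Named genes are Wnt4, members of the Wnt lists called in a reported comparison, the targeted genes, and the 5 nearest to Wnt4 on each of 3 measures. Wnt11, the renal vesicle and progenitor genes and the markers of other cell types were named outside this rule, after their values were seen. Wnt4 and the lists were chosen with earlier results of these data known. Promoter stretches are from RefSeq (GRCm38.p6), and guide sequences from the study's list.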

Additional observations from a re-analysis of the deposited data

Results flagged for a closer look

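The CHIR response of 11 of the 51 list genes tested differed between β-catenin KO and CTRL by the limma interaction term (adjusted p under 0.05), which Wnt4 did not pass. Of all genes tested 0.671% were called, and the list genes have symbols only from the study's tables of differing genes. Among progenitor genes the response of β-catenin KO minus that of CTRL on the log2 scale was 3.33 for Six2 (adjusted p = 6.5e-04), 4.48 for Osr1 (6.0e-04), 5.45 for Meox2 (0.0024), 1.74 for Wt1 (0.0051), 3.46 for Foxc2 (0.024), 3.97 for Crym (4.3e-04) and 3.40 for Tmem100 (0.018), which is on the renal vesicle list too. Among Wnt pathway genes it was 3.07 for Fzd4 (0.016), 3.45 for Frzb (0.012), 4.34 for Dkk2 (0.021) and 1.48 for Tcf7l1 (0.042). All 11 fell in CTRL with high CHIR.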

How the results depend on the processing

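The rise of Wnt4 in high CHIR was called in CTRL, α-catenin KO and QCKO under every alternative run: low values unfiltered or held to a mean of at least 100, a pseudocount of 0.25 or 5, a fold limit of 1 on the log2 scale, quantile normalization, a fit of the compared groups alone or of all 20 libraries, the replicate block, edgeR, DESeq2, leaving out each library, and, chosen after seeing the data, leaving out all replicate 1 libraries. Over all of these it ran from 6.02 to 6.47, 5.48 to 6.94 and 5.57 to 5.81 on the log2 scale. With the replicate block QCKO minus CTRL in high CHIR turned to -0.085 (adjusted p = 0.91), and β-catenin KO was called against CTRL in high CHIR (-2.45, adjusted p = 0.023) and in its CHIR response (-4.51, 0.023). The block changed no other Wnt4 call. DESeq2 called β-catenin KO against CTRL in low CHIR (3.01, 0.039) and in its CHIR response (-4.98, 0.0036), where edgeR gave 3.02 (0.23) and -4.97 (0.067). Without the replicate 1 libraries all 3 were called, at -1.48 (high CHIR), 3.31 (low CHIR) and -4.79 (response). In the limma fit of the compared groups alone none of them was called (adjusted p = 0.14, 0.96 and 0.43 in that order). Of 32 settings run for each, 3, 3 and 4 gave a call.

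Leaving out 1 library at a time, the Wnt4 values ranged from 6.07 to 6.47 (CHIR in CTRL), 5.48 to 6.94 (α-catenin KO), 5.57 to 5.81 (QCKO), 0.05 to 0.25 (α-catenin KO minus CTRL, high CHIR), -0.035 to 0.20 (QCKO minus CTRL, high CHIR), -0.44 to 1.03 (α-catenin KO minus CTRL, low CHIR), 0.46 to 0.87 (QCKO minus CTRL, low CHIR), -0.20 to 0.037 (QCKO minus α-catenin KO), -0.86 to 0.61 (response of α-catenin KO), -0.78 to -0.38 (response of QCKO), 0.31 to 2.74 (CHIR in β-catenin KO), -3.16 to -1.54 (β-catenin KO minus CTRL, high CHIR), 1.21 to 3.58 (low CHIR) and -6.03 to -3.60 (its response). Only without β-catenin KO low CHIR replicate 1 did a call change, for the last 3 (adjusted p = 0.012, 0.023 and 0.0028). Counts of genes called ranged, over all alternatives, from 761 to 2986 (CTRL), 197 to 1186 (α-catenin KO), 368 to 1855 (QCKO), 240 to 3060 (β-catenin KO minus CTRL, high CHIR), 0 to 189 (low CHIR), 46 to 400 (its response) and 0 to 51 (CHIR in β-catenin KO). Of each 5 nearest genes, 4 or 5 remained with pseudocounts of 0.25 and 5 and a mean of at least 10. Why these values moved was not tested.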
